A study of Rattus norvegicus with 23 samples.

Results

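The core transcription factors of the heart and the sinus node were read from rat gene expression microarrays of 6 cardiopulmonary regions. The set holds *Shox2*, *Isl1*, *Nkx2-5*, *Gata4*, *Gata5*, *Gata6*, *Mef2c*, *Hand1* and *Hand2*. A probe was assigned to one of these genes when its accession belonged to that gene. By this rule 8 of the 9 listed genes had a probe, out of 16544 genes with a symbol, and these 8 genes were covered by 11 of 45598 probes. *Mef2c* was matched to no probe and is not analysed here. *Shox2*, *Nkx2-5* and *Hand2* had 2 probes each and the others had 1.

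The study profiled hearts of male Wistar rats aged 8 to 11 weeks, with 12 rats used in all and no genetic change or drug treatment that distinguished the groups. There were 4 arrays each of left atrium (LA), left ventricle (LV), sinoatrial node (SA), pulmonary vein (PV) and pulmonary artery (PA), and 3 arrays of right ventricle (RV). Each SA sample combined tissue of 2 rats. Each left ventricle was cut into 3 pieces, so LV samples may share an animal, and the labels do not say which samples came from separate rats. The p-values therefore measure the spread between these samples, which may be partly technical. V stands for the mean of LV and RV in the comparisons, and for the mean of the 7 ventricular arrays in the specificity measure described further on. A signal is the deposited normalized probe brightness, and a log2 signal is log2(signal + 1) of the brightest probe of a gene on each array.

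Between 58.6% and 79.8% of the probes on an array were well above background by the scanner's own flag. Arrays sat in 2 rows of 3 slides, and this share was 72.6% to 79.8% in the first row and 58.6% to 69.3% in the second. LA had 3 of its 4 arrays in the first row, whereas SA and PV each had 3 of 4 in the second. In the check of tissue identity, the summed signal of 5 cardiomyocyte genes was at least 1041910 on every array outside PA and between 27137 and 90153 on the PA arrays. *Irx4*, a ventricular transcription factor, stayed below the background flag on all SA and PV arrays, but passed it on all 4 LA arrays. A set of 5 sinoatrial pacemaker genes summed to between 11270 and 13583 in SA and to at most 10034 elsewhere, where PV came closest.

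These factors form the core regulatory network of the mammalian heart. NKX2-5 is a homeodomain protein that acts with the zinc-finger proteins GATA4, GATA5 and GATA6, the MADS-box protein MEF2C and the basic helix-loop-helix proteins HAND1 and HAND2 to switch on genes of contractile muscle. SHOX2 and ISL1 act in pacemaker tissue. SHOX2 restrains the NKX2-5 programme in the developing sinus node, and ISL1 marks progenitors of the second heart field and is also known from motor, sensory and sympathetic neurons.

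The members differed in how strongly they were tied to a region. *Shox2* was high in SA and PV, intermediate in LA and not detected in the ventricles. *Nkx2-5*, *Gata4* and *Gata5* were high throughout the heart and low in PA. *Isl1* was high in PA alone among the 6 regions sampled. *Gata6*, *Hand1* and *Hand2* varied by less than 1.0 on the log2 scale between the highest and the lowest region mean. When all 6 regions were tested together with limma's F-test and Benjamini-Hochberg adjustment over 16089 genes, 7 of the 8 members were called at an adjusted p below 0.05. Of all genes tested, 64.4% were called. The one member that was not called was *Hand1* (adjusted p = 0.215).

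**Figure D1:**
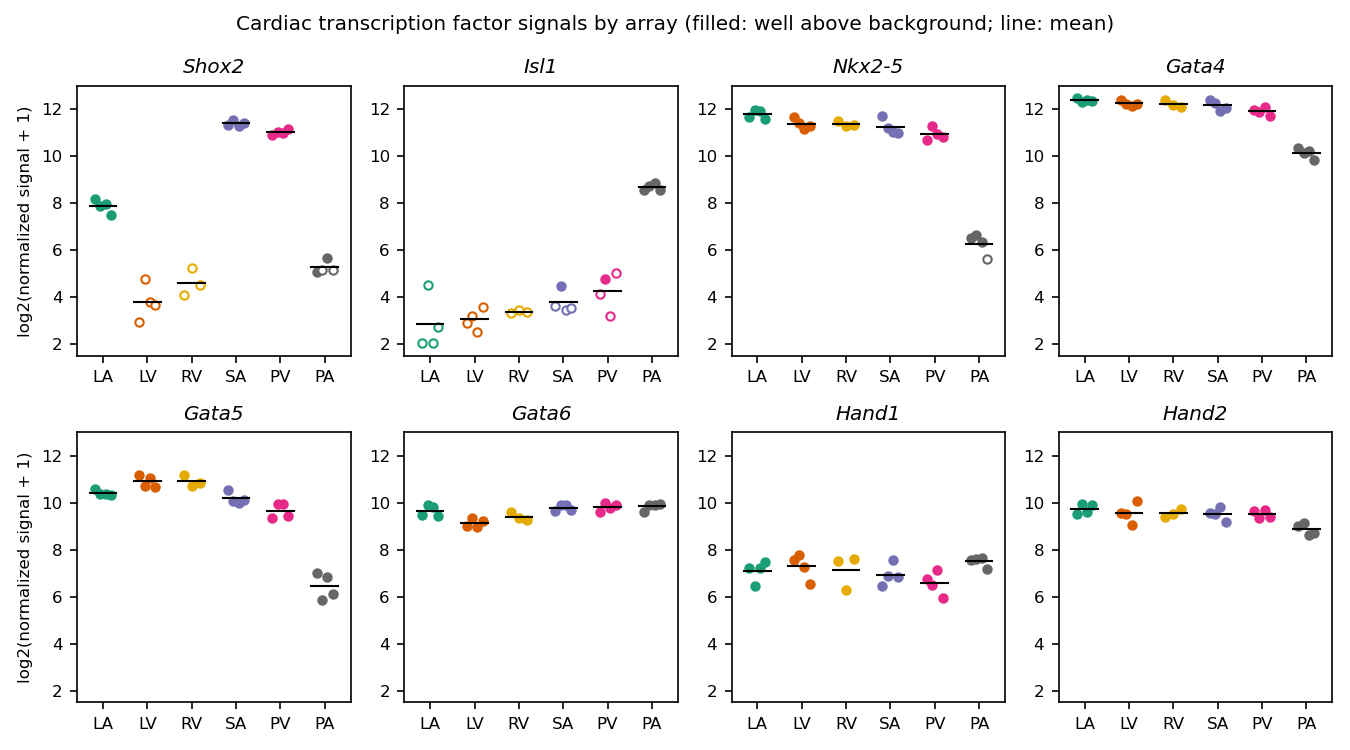
Log2(normalized signal + 1) of 8 transcription factors on 23 arrays, by region, with 1 panel per gene. Filled points are arrays on which the probe was well above background, open points are arrays on which it was not, and the line is the region mean. *Shox2* sits at 11.40 in SA and 11.03 in PV, and *Isl1* is filled on all 4 arrays in PA only.

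*Shox2*, the homeobox gene of the sinus node, was studied to ask which regions of the adult rat heart express it. Its signals were 2586, 2993, 2520 and 2757 on the 4 SA arrays and 1925, 2136, 2049 and 2293 on the 4 PV arrays. The LA arrays gave 293, 239, 254 and 182, all well above background. SA and PV were thus far above LA on every array, and the groups did not overlap. In PA the signals were 33.0, 34.6, 49.9 and 34.8, with 2 of the 4 arrays well above background. In the ventricles they were 6.70, 26.8, 13 and 11.9 (LV) and 16.2, 37.1 and 22 (RV), and none of these 7 arrays was well above background.

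On the log2 scale *Shox2* was 11.40 ± 0.11 in SA (SD, n = 4), 11.03 ± 0.11 in PV (n = 4), 7.90 ± 0.28 in LA (n = 4) and 5.27 ± 0.27 in PA (n = 4). SA exceeded LA by 3.50 (SE 0.28, limma adjusted p = 3.06e-07), a fold of 11.3. *Shox2* was the only one of the 8 members called in this comparison, in which 15.3% of all genes were called. PV exceeded LA by 3.13 (SE 0.28, limma adjusted p = 9.20e-07), a fold of 8.76. These comparisons share the LA arrays. In bulk tissue, fewer cells of a type and less RNA per cell cannot be told apart.

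Against the ventricles only lower bounds could be given. Each ventricular array was set at the higher of its own measured value and the lowest signal among probes well above background, and the means were compared. By this rule *Shox2* was at least 96.9-fold higher in SA than in V (limma adjusted p = 1.50e-13), at least 75.1-fold higher in PV than in V (adjusted p = 2.57e-13) and at least 8.57-fold higher in LA than in V (adjusted p = 1.11e-09). These adjusted p-values come from the fit of the measured signals and not from the bounds. The measured log2 mean of V was 4.22. LA was therefore above the ventricles as well as below SA. The calls of SA over LA, PV over LA, and SA, PV and LA over V held under all 36 alternative settings. The bounds hold for the deposited scale, since normexp background correction gave log2 differences to V of 4.71 in SA, 4.34 in PV and 1.53 in LA, which are smaller folds than these bounds. Within the 3 slides SA exceeded LA by 3.38 to 3.78, and within the rows by 3.64 and 3.45.

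PV and SA were the neighbours at the top of the *Shox2* order. Every PV array lay below every SA array on both *Shox2* probes. The second, dimmer probe read 909 to 1239 in SA and 798 to 842 in PV. The PV mean was 0.37 below SA (SE 0.28, 95% interval -0.96 to 0.23, limma adjusted p = 0.595), so limma's test did not call the difference. Within the 3 slides the difference was -0.46, -0.27 and -0.30. Limma took 1 spread from all 6 regions, in which the LV arrays below background had an SD of 0.76, and fitting only SA and PV did not call the difference either (limma adjusted p = 0.130). The next steps down, PV to LA and LA to PA, were both called. PA, RV and LV are not ordered here, since 2 of the 4 PA arrays and no ventricular array were well above background.

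**Figure D2:**
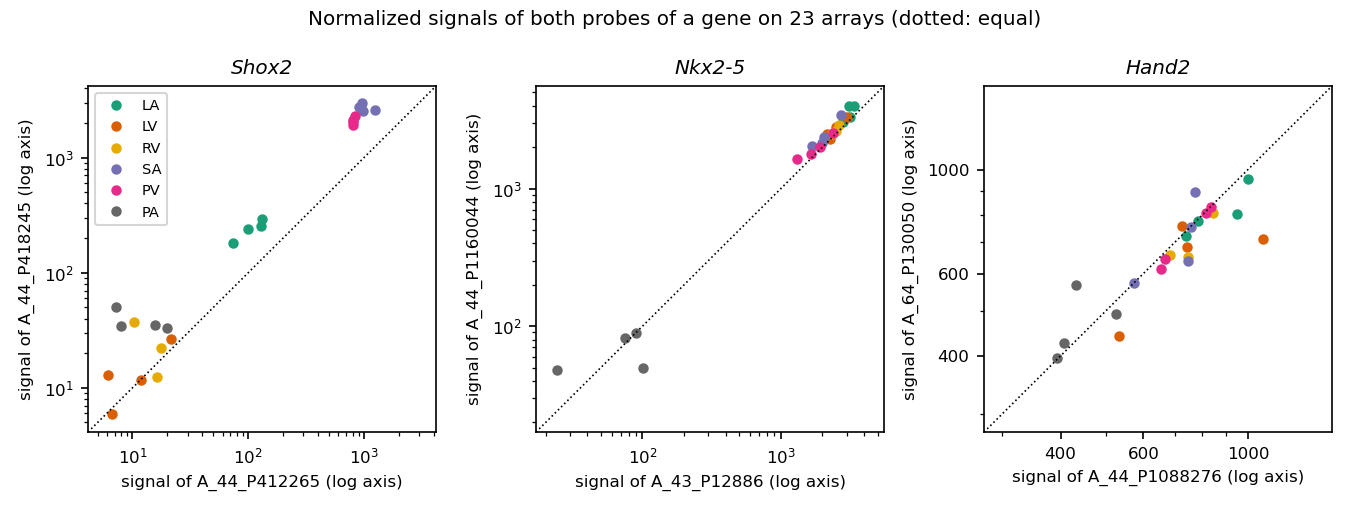
Normalized signals (log axes) of both probes of *Shox2*, *Nkx2-5* and *Hand2* on 23 arrays, coloured by region, with a dotted line at equal signals. On both *Shox2* probes SA lies above PV and PV above LA, and the PA arrays are the low group of *Nkx2-5*.

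The specificity measure (SPM) of the study's methods divides a region's mean log2 signal by the root of the summed squares over LA, V and SA. For *Shox2* in SA it was 0.787 (SD 0.0029 over the SA arrays, with the LA and V means held fixed). Of 15809 genes 9, or 0.0569%, had a higher value. The V mean of *Shox2* comes from arrays that were all below background. Computed from means of linear signals the *Shox2* value was 0.996. *Isl1* had an SPM of 0.662 in SA with 2.07% of genes higher, but its probe was well above background on 1 of the 4 SA arrays. PV and PA do not enter this measure.

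*Nkx2-5*, *Gata4* and *Gata5* were lower in PV than in LA. *Nkx2-5* signals were 3296, 3977, 3969 and 3063 in LA and 1652, 2523, 1991 and 1794 in PV, with no overlap. Its log2 difference was -0.85 (SE 0.20, limma adjusted p = 0.00788), a fold of 1.81. *Gata4* signals ran from 5157 to 5666 in LA and from 3425 to 4462 in PV (log2 difference -0.45, SE 0.12, limma adjusted p = 0.0162). *Gata5*, a GATA factor of the endocardium and epicardium, ran from 1292 to 1557 in LA and from 650.0 to 998 in PV (log2 difference -0.76, SE 0.22, limma adjusted p = 0.0254). For these 3 of 8 members all PV arrays lay below all LA arrays, as they did for 9.45% of all genes. The differences of *Gata6* (0.14, limma adjusted p = 0.561), *Hand1* (-0.51, adjusted p = 0.381) and *Hand2* (-0.22, adjusted p = 0.516) were not called.

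With *Shox2* and *Isl1* on the higher side, 5 of 8 members were called between PV and LA, against 13.5% of all genes. The 2 higher members stand beside 6.99% of all genes called higher, and the 3 lower ones beside 6.51% called lower. The median difference was -0.34 over the 8 members and -0.03 over all genes. *Isl1* was well above background on 1 of 4 PV arrays and no LA array, and its call was lost in 11 of 36 settings. The *Nkx2-5* call held under all 36 settings. *Gata4* lost its call without PV replicate 4 (adjusted p = 0.0649). *Gata5* lost its call with the array row as a block (adjusted p = 0.0568) and without LA replicate 1 (0.0699), LA replicate 3 (0.0512), PV replicate 1 (0.0825) or PV replicate 4 (0.0837). Markers of other cells moved alongside. Mesothelial genes summed to between 16990 and 21499.6 in LA and to between 2889.6 and 7948.5 in PV, and Schwann cell genes to between 3773.9 and 5615.2 in LA and to between 12478.5 and 17282.6 in PV. Smooth muscle genes summed to at most 31919.1 in LA and at least 77505 in PV, fibroblast genes to at most 124824 and at least 135954, and autonomic neuron genes to at most 1174.1 and at least 2109. The part of these cells in the differences was not tested.

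SA against LA gave smaller values for the same genes. *Nkx2-5* signals in SA were 3408, 2373, 2132 and 2055, overlapping LA through the first array. The log2 difference was -0.54 (SE 0.20, limma adjusted p = 0.0838) and it was called without SA replicate 1 (-0.70, adjusted p = 0.0286) or PA replicate 4 (adjusted p = 0.0319), and with normexp background correction (-0.51, adjusted p = 0.0129). *Gata4* differed by -0.21 (95% interval -0.47 to 0.04) and *Gata5* by -0.24 (95% interval -0.70 to 0.22), and neither was called. Between PV and SA limma called 0 of the 8 members, against 3.49% of all genes. *Gata5* gave -0.52 (95% interval -0.98 to -0.06, limma adjusted p = 0.238). Its PV and SA arrays did not overlap, nor did those of *Shox2*, and the share of all genes without overlap was not computed. The interval of *Nkx2-5* was -0.74 to 0.12 and that of *Gata4* was -0.49 to 0.01. Marker sums differed between SA and LA without overlap. Mesothelial genes summed to at least 16990 in LA and at most 8501 in SA. The sums were higher in SA for smooth muscle genes (at most 31919.1 in LA and at least 50479.2 in SA), Schwann cell genes (5615.2 and 6934.5), autonomic neuron genes (1174.1 and 1525) and cardiomyocyte genes (1272620 and 1458190). The part of these cells in the differences between SA and LA was not tested.

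**Figure D3:**
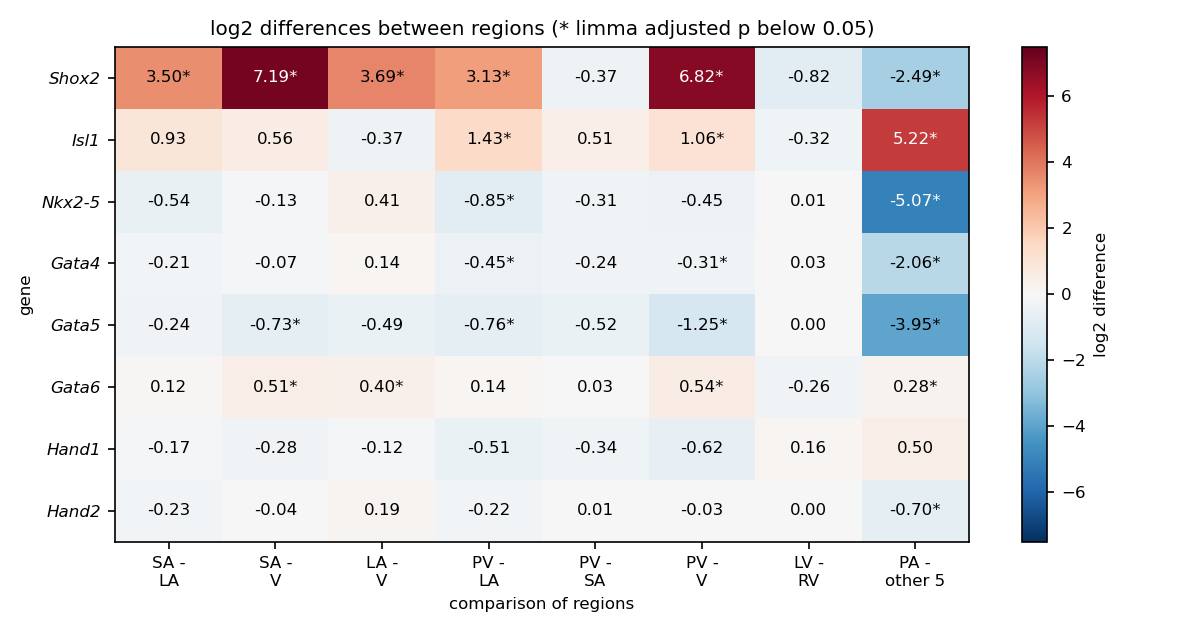
Log2 differences of 8 transcription factors (rows) in 8 comparisons of regions (columns), with an asterisk where limma's adjusted p was below 0.05. Red is higher in the region named first and blue is lower. *Shox2* was below background on all ventricular arrays, and *Isl1* was below it on all arrays outside PA apart from 1 array each of SA and PV. The PA column holds the lowest value, -5.07 for *Nkx2-5*.

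*Gata5* was lower in SA and PV than in V, and *Gata6* was higher in SA, PV and LA than in V. *Gata5* signals were 2325, 1683, 2141 and 1652 in LV, 2334, 1680 and 1845 in RV, 1487, 1097, 1021 and 1109 in SA, and lower again in PV. Every ventricular array was above every SA and PV array. A set of 5 endothelial genes moved alongside, with sums of 60473.9 to 73362.8 in the ventricles and 33440.4 to 42796.2 in SA and PV (32907.3 to 40665.9 in LA), and the part of these cells was not tested. The log2 difference to V was -0.73 in SA (SE 0.20, limma adjusted p = 0.00778) and -1.25 in PV (SE 0.20, adjusted p = 5.07e-05). For LA it was -0.49 (SE 0.20, adjusted p = 0.0612), a value called in 5 alternative settings and in 2 that left out a PA array.

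*Gata6*, which overlaps in function with *Gata4*, ran from 506 to 663 in LV and from 609 to 782 in RV. It ran from 795 to 968 in SA, from 775 to 1026 in PV and from 702 to 964 in LA. The SA arrays were all above the ventricular ones, while LA and PV overlapped them through RV replicate 1. The log2 difference to V was 0.51 in SA (SE 0.11, limma adjusted p = 0.00188), 0.54 in PV (adjusted p = 0.00103) and 0.40 in LA (adjusted p = 0.0100). The LA call was lost without LA replicate 2 (0.32, adjusted p = 0.0545). Against the single ventricles *Gata6* in SA differed from LV by 0.64 (adjusted p = 0.000823) and from RV by 0.38 (adjusted p = 0.0555). In LA it differed from LV by 0.53 (adjusted p = 0.00327) and from RV by 0.27 (adjusted p = 0.175), so of these 4 differences those to LV were called. In PV *Gata6* differed from LV by 0.67 and from RV by 0.41, and both differences were called. Schwann cell genes summed to at most 3277.4 in the ventricles and to at least 3773.9 in LA, 6934.5 in SA and 12478.5 in PV. Smooth muscle genes summed to at most 35817.4 in the ventricles and to at least 50479.2 in SA and PV, and mesothelial genes to at most 5324.6 in the ventricles and at least 16990 in LA. The part of these cells in the differences to V was not tested.

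Counted over the members, 3 of 8 were called in SA against V (*Shox2*, *Gata5* and *Gata6*), where 28.1% of all genes were called, 12.3% higher and 15.8% lower. In LA against V 2 of 8 were called, where 35.4% of all genes were. In PV against V 5 of 8 were called, where 33.9% of all genes were, 15.6% higher and 18.3% lower. *Isl1*, 1 of these 5, was below background on all 7 ventricular arrays and lost its call in 21 of 36 settings. Against the single ventricles, the counts were 3 between SA and LV (26.2% of all genes), 2 between SA and RV (21.7%), 2 between LA and LV (33.8%), 1 between LA and RV (27.2%), 5 between PV and LV (31.6%) and 3 between PV and RV (25.9%), in either direction. With 8 members, neither the SA counts nor the LA counts are read as apart from these shares. *Gata4* in PV was 0.31 below V (SE 0.11, limma adjusted p = 0.0301). That call was lost with the row block (adjusted p = 0.0567), with scaling at the 75th percentile (0.0546) and without LV replicate 1 (0.0547), PV replicate 1 (0.0517), PV replicate 2 (0.0689), PV replicate 4 (0.118) or RV replicate 1 (0.0747). *Nkx2-5* in PV differed from V by -0.45 (limma adjusted p = 0.0657), which was called without PA replicate 4 (0.0239), PV replicate 2 (0.0349) or SA replicate 1 (0.0478), and with quantile normalization (0.0398), normexp (0.00434), a pseudocount of 16 (0.0463) or only the regions compared (0.0336). *Nkx2-5* in LA differed from V by 0.41 (adjusted p = 0.0922), which was called without PA replicate 4 (0.0363) and with only the regions compared (0.0261).

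Between the left and right ventricles limma called 0 of the 8 members, against 0.522% of all genes. *Shox2* (limma adjusted p = 0.293) was below background on both sides. The difference of *Nkx2-5* was 0.01 (95% interval -0.45 to 0.47), and that of *Gata4* was 0.03 (-0.24 to 0.31). The interval of *Gata5* was -0.50 to 0.49. *Gata6* gave -0.26 (-0.55 to 0.03). *Hand1*, known for its place in the left ventricle of the embryo, gave 0.16 (-0.59 to 0.90), and *Hand2*, known from the embryonic right ventricle, had an interval of -0.42 to 0.42.

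The pulmonary artery, whose cardiomyocyte genes were low, was set against the mean of the other 5 regions. *Nkx2-5* signals there were 89.7, 100.4, 81.9 and 47.8, the last not well above background, against 1652 or more on all 19 other arrays. The log2 difference was -5.07 (SE 0.16, limma adjusted p = 5.41e-16), a fold of 33.5. *Gata5* signals in PA were 127.5, 58.0, 115.1 and 69.5 (difference -3.95, SE 0.17, limma adjusted p = 6.87e-14, a fold of 15.5). *Gata4* kept signals of 1297, 1116, 1218 and 908 in PA, well above background on all 4 arrays (difference -2.06, SE 0.09, limma adjusted p = 1.68e-13, a fold of 4.17). For these 3 of 8 members all PA arrays lay below all 19 other arrays, as they did for 15.1% of all genes. With normexp the difference of *Nkx2-5* was -3.98 and that of *Gata5* was -3.06.

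*Hand2* read 524, 566, 397 and 425 in PA and between 532 and 1078 elsewhere, with LV replicate 3 the low array (log2 difference -0.70, SE 0.14, limma adjusted p = 0.000282, a fold of 1.62). *Shox2* in PA was called lower than the mean of the others (limma adjusted p = 5.41e-09), but that mean holds 7 ventricular arrays below background and no size is given. It was also called lower than LA (adjusted p = 1.34e-07). *Gata6* in PA, at 793, 954, 974 and 981, was 0.28 above the mean of the others (SE 0.10, limma adjusted p = 0.0203), a call lost without PA replicate 2 (adjusted p = 0.0599), PA replicate 3 (0.0682) or PA replicate 4 (0.0717). Its levels in PA, PV, SA and LA lay within 0.17 of each other on the log2 scale and no pair of them was called.

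PA was the region where *Isl1* was well above background on every array. Its signals there were 381, 426, 472 and 383, all well above background. On the 19 other arrays they ran from 3.20 to 31.4, and 2 of these arrays were well above background, SA replicate 2 at 21.4 and PV replicate 2 at 26.5. PA stood clear of all other arrays. By the bound described above, *Isl1* was at least 20.5-fold higher in PA than in LA (limma adjusted p = 8.46e-10), at least 14.3-fold higher than in LV (adjusted p = 1.12e-09) and at least 15.6-fold higher than in RV (adjusted p = 1.03e-08). PA was also called over PV (adjusted p = 5.59e-08) and over SA (adjusted p = 9.76e-09), where 1 of 4 arrays each was well above background, and no fold is given. As for *Shox2*, the adjusted p-values come from the measured signals. The bounds hold for the deposited scale. With normexp the fitted log2 difference to the mean of the other 5 regions, where 2 of 19 arrays were well above background, was 2.38, a smaller fold than any of these bounds.

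In the heart *Isl1* gave no order that could be relied on, and no sizes are given because its probe was below background on most arrays. SA over LA was not called (limma adjusted p = 0.187), but it was called without LA replicate 2 (adjusted p = 0.00999) and with normexp background correction (adjusted p = 0.0178). PV was called over LA (adjusted p = 0.0379) and over V (adjusted p = 0.0449), with adjusted p up to 0.222 and 0.530 in the settings that lost these calls. Between PV and LA these included leaving out LA replicates 1 (0.124), 3 (0.131) and 4 (0.0776) and PV replicates 1 (0.0603), 2 (0.0991) and 4 (0.134). Between PV and V they included leaving out LA replicate 4, LV replicates 1 to 3, any PA or RV replicate, PV replicates 1, 2 and 4, or SA replicates 1, 3 and 4 (adjusted p up to 0.164). LA against V (adjusted p = 0.516) was called lower without LA replicate 2 (adjusted p = 0.0321). Within the second row the PV mean lay below the 1 LA array.

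In all 7 of 8 members were called in PA against the other 5 regions, with 2 higher and 5 lower, where 59.1% of all genes were called (31.4% higher and 27.7% lower). Against single regions the counts were 6 for LA (52.1% of all genes), 7 for LV (55.8%), 6 for RV (53.6%), 6 for SA (53.6%) and 7 for PV (53.4%). The median difference was -1.38 over the members and 0.05 over all genes. Smooth muscle genes summed to between 714926 and 839963 in PA and to at most 112352 elsewhere, and cardiomyocyte genes were 23.1-fold lower in PA by geometric means. Fibroblast genes summed to between 210940 and 248081 in PA and to at most 185850 elsewhere. The part of this difference in tissue in the member values was not tested. A set of 7 (of 10 listed) autonomic neuron genes summed to between 3811.5 and 8321.6 in PA, to between 2109 and 18763.1 in PV and to at most 2233.8 in the other regions. The part of these cells in the *Isl1* signal was not tested.

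Promoters are shown for 3 members that moved between PA and the heart, *Isl1* upward and *Nkx2-5* and *Hand2* downward, to display the bases in front of these genes. RefSeq promoters on build GRCr8 were at hand for 5 of the 8 members (*Isl1*, *Nkx2-5*, *Gata6*, *Hand1* and *Hand2*), and *Shox2*, *Gata4* and *Gata5* had none in the table used. Each line holds the 250 bases before the annotated start, read 5′ to 3′ on the gene's strand. The windows are chr2:49823443-49823692 (minus strand) for *Isl1*, chr10:16848350-16848599 (plus strand) for *Nkx2-5* and chr16:37931489-37931738 (minus strand) for *Hand2*. Capitals mark matches on either strand to the GATA motifs AGATAA and TGATAA, the NKX core AAGTG, the E-box CANNTG and the TATA box TATAAA.
Isl1: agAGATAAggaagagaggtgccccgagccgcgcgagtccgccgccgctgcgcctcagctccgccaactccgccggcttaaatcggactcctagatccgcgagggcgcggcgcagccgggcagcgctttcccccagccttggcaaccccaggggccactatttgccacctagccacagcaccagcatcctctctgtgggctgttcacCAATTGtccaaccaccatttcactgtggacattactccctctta
Nkx2-5: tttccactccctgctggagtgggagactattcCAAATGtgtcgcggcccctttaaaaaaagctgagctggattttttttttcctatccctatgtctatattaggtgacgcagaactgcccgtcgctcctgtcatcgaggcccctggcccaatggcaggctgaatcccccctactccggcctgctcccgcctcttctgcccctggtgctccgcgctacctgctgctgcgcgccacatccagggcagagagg
Hand2: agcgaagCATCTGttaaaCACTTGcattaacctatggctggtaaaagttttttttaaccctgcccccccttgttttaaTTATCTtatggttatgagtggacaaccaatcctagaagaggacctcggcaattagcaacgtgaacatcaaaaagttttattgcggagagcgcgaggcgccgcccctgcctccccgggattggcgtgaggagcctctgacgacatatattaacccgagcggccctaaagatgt

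Positions are counted back from the start, with -1 next to it. *Isl1* held a GATA motif at -248 and an E-box at -44. *Nkx2-5* held an E-box and no GATA motif in this window. *Hand2* held a GATA motif on the opposite strand, which reads TTATCT here, and 2 E-boxes, of which the one at -232 overlaps an NKX core on the opposite strand. Among 33469 RefSeq promoters of this length, AGATAA was found in 10.3%, TGATAA in 7.97%, AAGTG in 40.6%, CANNTG in 65.5% and TATAAA in 12.9%. GC content was 62.8% for *Isl1*, 58.0% for *Nkx2-5* and 48.0% for *Hand2*, against a median of 51.2%. Motifs this short occur widely, and a match is a description of the sequence only.

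*Hand1* was detected on all 23 arrays at low signals. The LA arrays read 87.0 to 175.7, the LV arrays 92.2 to 218.7 and the RV arrays 78.1 to 191.9. The SA arrays read 86.6 to 187.0, the PV arrays 60.9 to 140.4 and the PA arrays 145.5 to 198.1. The regions overlapped except PA and PV (log2 difference 0.92, SE 0.33, limma adjusted p = 0.0250), and no other pair was called. PV differed from V by -0.62 (adjusted p = 0.111), which was called without LV replicate 4 (-0.75, adjusted p = 0.0465) or RV replicate 2 (-0.83, adjusted p = 0.0256). *Hand2*, its relative in heart and limb development, had region means between 9.52 and 9.75 on the log2 scale in the heart, with no pair of heart regions called. Among neighbours in its order of region means only SA and PA, at the foot, were called (0.63, limma adjusted p = 0.00627). PA was called lower than each of the 5 other regions.

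The order of region means for the 3 cardiac factors was LA, LV, RV, SA, PV and PA for both *Nkx2-5* and *Gata4*, and RV, LV, LA, SA, PV and PA for *Gata5*. In each of these orders limma called a difference between the last pair of neighbours only, PV over PA. For *Nkx2-5* the region means were 11.80 ± 0.19 (LA), 11.39 ± 0.23 (LV), 11.38 ± 0.12 (RV, n = 3), 11.25 ± 0.33 (SA), 10.94 ± 0.26 (PV) and 6.29 ± 0.47 (PA; SD, n = 4 unless given). For *Gata6* the order was PA, PV, SA, LA, RV and LV, and no neighbours were called.

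Over the 23 arrays, *Nkx2-5* and *Gata4* had a Pearson correlation of 0.989, *Gata4* and *Gata5* one of 0.972, and *Isl1* and *Gata4* one of -0.954. *Shox2* correlated weakly with *Nkx2-5* (0.268). These values describe the arrays, which share 6 regions with PA far from the rest, and carry no test.

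For each member the 3 genes with the most similar profile over 23 arrays were taken from those well above background wherever the member was highest. For *Shox2* they were *Fez1*, an adaptor of axonal transport (r = 0.980), *Camk2b*, the beta chain of calmodulin-dependent kinase II (r = 0.974), and *Ppp2r2b*, a regulatory subunit of protein phosphatase 2A (r = 0.972). *Fez1* rose from a log2 mean of 7.30 ± 0.18 in LV and 8.75 ± 0.27 in LA to 10.89 ± 0.22 in SA and 10.76 ± 0.24 in PV, and *Camk2b* reached 8.58 ± 0.20 in SA and 8.78 ± 0.44 in PV. These genes were chosen for this likeness, so the shared pattern is a description. For *Isl1* they were *Serpina3n*, a protease inhibitor (r = 0.969), *Prkar2b*, a regulatory subunit of protein kinase A (r = 0.966), and *Niban1* (r = 0.965), each highest in PA.

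For *Nkx2-5* the closest were *Trim63*, a ubiquitin ligase of muscle (r = 0.993), *Mpi* (r = 0.990) and *Gata4*. For *Gata4* they were *Nkx2-5*, *Plin2*, a lipid droplet coat protein (r = 0.982), and *Rxrg*, a retinoid receptor (r = 0.982). For *Gata5* they were *Fkbp3* (r = 0.989), *Mospd1* (r = 0.984) and *Acss1* (r = 0.982). *Gata6* was followed by *Alcam*, a cell adhesion molecule (r = 0.874), *Csnk2a2* (r = 0.851) and *Mks1* (r = 0.846). *Hand1* was followed by *Slc6a12* (r = 0.925), *LOC102550394* (r = 0.912) and *Prr9* (r = 0.906), and *Hand2* by *Tmem209* (r = 0.844), *Cln8* (r = 0.839) and *Exosc4* (r = 0.826). The best matches of *Hand2*, *Gata6* and *Hand1* were the weakest of the 8 members.

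**Figure D4:**
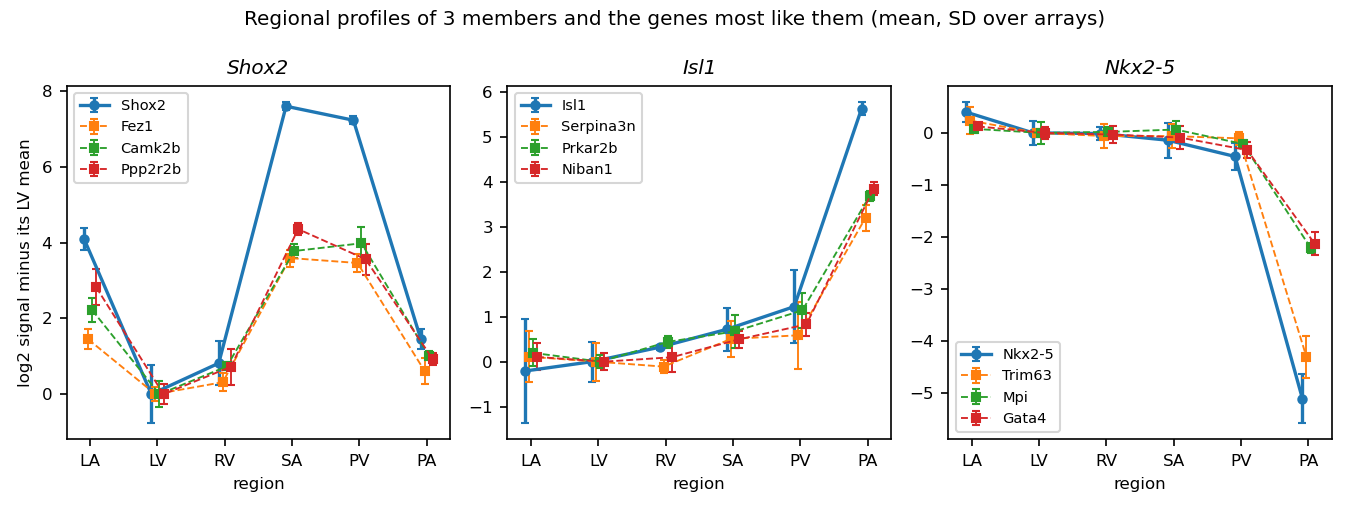
Log2 signal minus its own LV mean (vertical axis) in 6 regions for *Shox2*, *Isl1* and *Nkx2-5*, each with the 3 genes of the most similar profile. Points are region means and bars are SD over 4 arrays (RV 3). *Isl1* and its matches rise in PA, and *Nkx2-5* and its matches fall there.

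The genes around these factors were counted in lists of cofactors, pacemaker genes, working-muscle targets and family relatives. Of 8 pacemaker genes 7 had a probe, and in SA against LA 3 rose and 1 fell (list median 0.19, all genes 0.01), where 15.3% of all genes were called. The pacemaker channel gene *Hcn4* (2.14, SE 0.31, limma adjusted p = 9.86e-05) and the repressor gene *Tbx3* (1.20, adjusted p = 0.00106) were higher in SA, and the connexin gene *Gjc1* was lower (-0.40, adjusted p = 0.0125). In LA against V 3 of the 7 rose and 2 fell (list median 0.03, all genes -0.09), where 35.4% of all genes were called. The lower ones were *Hcn4* (-1.35, limma adjusted p = 0.000585) and *Tbx3* (-0.89, adjusted p = 0.00131), whose LA and ventricular arrays overlapped. In PV against SA, where *Shox2* was not called, 2 of the 7 were lower in PV (list median -0.64, all genes -0.04, with 3.49% of all genes called), among them *Hcn4* (-1.15, adjusted p = 0.0429). Against LA, PV was higher for 2 of the 7 (list median 0.47, all genes -0.03, with 6.99% of all genes called higher), among them *Hcn4* (0.99, adjusted p = 0.0365).

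Among 19 cofactors with a probe (of 20 listed), 1 rose and 3 fell in SA against LA (list median -0.08, all genes 0.01), against the same 15.3%. *Hopx*, which encodes a small homeodomain protein that binds no DNA, rose by 1.33 (SE 0.16, limma adjusted p = 2.21e-05). The GATA cofactor genes *Zfpm1* (-0.35, adjusted p = 0.0149) and *Zfpm2* (-0.40, adjusted p = 0.0272) and *Twist1* (-0.42, adjusted p = 0.0298) fell. In SA against V 6 rose and 2 fell (list median 0.02, all genes -0.06), where 12.3% of all genes were called higher and 15.8% lower, including *Hopx* (2.90, adjusted p = 1.34e-11) and *Tbx5* (2.12, adjusted p = 1.52e-05). In LA against V 6 rose and 2 fell (list median 0.14, all genes -0.09), where 35.4% of all genes were called, with *Tbx5* (1.99, adjusted p = 2.22e-05) and *Hopx* (1.57, adjusted p = 6.01e-08) on the higher side. In PA 9 rose and 7 fell (list median 0.15, all genes 0.05), where 31.4% of all genes were called higher and 27.7% lower, with *Nfatc4* (2.12, adjusted p = 8.72e-14) and *Myocd*, a coactivator of smooth and cardiac muscle genes (1.16, adjusted p = 1.31e-08), on the higher side and *Hopx* (-2.33, adjusted p = 2.36e-12) on the lower. The log2 signals of *Hopx* in PA (10.64 to 11.02) overlapped those in RV (10.94 to 11.37). *Tbx20* was also called lower (adjusted p = 4.72e-09), with 2 of 4 PA arrays well above background.

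All 12 working-muscle targets had a probe. In PA 11 fell and 1 rose (list median -6.22, all genes 0.05), where 59.1% of all genes were called. The natriuretic peptide gene *Nppa* was among the lower ones (limma adjusted p = 1.25e-10), although its log2 signals in PA spread from 7.16 to 11.64 and overlapped those in RV, the lowest of which was 10.38, and the vascular and conduction connexin gene *Gja5* was the higher one (2.54, adjusted p = 1.10e-11). In SA against LA 4 rose and none fell (list median 0.32), where 15.3% of all genes were called, including *Gja5* (1.82, adjusted p = 4.76e-06) and *Ankrd1*, a stress-responsive muscle gene (1.03, adjusted p = 0.0370). The cardiomyocyte sum was also higher in SA (1458190 to 1625870) than in LA (1041910 to 1272620), and its part in these differences was not tested. In PV against LA 3 rose and 2 fell (list median 0.21, all genes -0.03), where 6.99% of all genes were called higher and 6.51% lower, with *Gja5* again higher (1.61, adjusted p = 2.01e-05) and *Gja1*, the main connexin gene of working muscle, lower (-0.81, adjusted p = 0.00198). All 6 family relatives outside the set (*Gata1*, *Gata2*, *Gata3*, *Isl2*, *Nkx2-3* and *Nkx2-6*) had a probe. In PA 1 of them was called, *Gata2*, which was higher (1.42, adjusted p = 7.78e-08) and which also stands in the neuron list. In SA against V 1 was called, *Gata3*, which was lower in SA (adjusted p = 0.00975). Its probe passed the background flag on 0 of 4 SA arrays and 6 of 7 ventricular arrays, so no size is given.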

How the data were processed

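RNA of 23 rat tissue samples was hybridized to Agilent SurePrint 1-colour arrays, and scanner files were made with Agilent Feature Extraction 11.0.1.1 (probe annotation on build rn4). The deposited normalized values are linear intensities that the authors scaled to a common 90th percentile. On each array 99.6% or more of the probes brighter than 50 equalled the scanner's processed intensity times 1 factor (0.881 to 1.52) within 2%. The scanner files supplied the background flags and the alternatives, and no spot was saturated. After removal of 158 probes with a missing value, the brightest probe of a gene on each array was taken as log2(signal + 1). Genes above 4 on at least 1 array were kept (16089). Differences were fitted with limma 3.58.1 in R 4.3.3 over all 23 arrays and 6 regions, with Benjamini-Hochberg adjustment over all genes and a threshold of 0.05. The fit was tested on simulated data. Arrays give no counting depth, and their number limits the precision. The alternatives covered the source and scaling of signals, background correction, filters, pseudocount, probe choice, slide, row and replicate blocks, and each array left out. Members and gene lists were chosen with earlier results of these data known. Named genes were all members, the 3 most similar genes to each, and the called list genes with the largest differences (at most 3 per list, comparison and direction). *Hcn4* in PV against SA was named after its value was seen. Some list genes that this rule selects are not reported here.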

Additional observations from a re-analysis of the deposited data

Results flagged for a closer look

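In 4 of 40 groups of 4 arrays, 1 array stood apart from the others by more than Dixon's 95% criterion allows, a criterion that chance meets in about 1 of 20 groups. *Shox2* in PA was 5.67 on the log2 scale on replicate 3 (signal 49.9) and 5.09 to 5.16 on the others. *Isl1* in SA was 4.49 on replicate 2 (signal 21.4, the one SA array on which it was well above background) and 3.46 to 3.62 on the others. *Gata6* in PA was 9.63 on replicate 1 and 9.90 to 9.94 on the others. *Hand1* in PA was 7.20 on replicate 4 and 7.57 to 7.64 on the others.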

How the results depend on the processing

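For differences, the alternatives were run for SA against LA, PV against LA, PV against SA, and LV against RV. They were also run for SA, LA and PV against V, and for PA against the mean of the other 5 regions. No member difference called in these comparisons turned its sign under any alternative. Differences between other pairs of regions, called or not, were not run under the alternatives. The count of members called in LA against V was 2 and became 4 when only the regions compared were fitted. The counts in PV against LA and in PV against V were 5 each and became 3 each with the array row as a block. The count in SA against LA was 1 and became 3 with normexp background correction and 2 with the replicate block. Leaving out 1 array at a time gave 7 to 7 members in the F-test, 1 to 2 in SA against LA, 3 to 3 in SA against V, 2 to 3 in LA against V, 2 to 5 in PV against LA, 3 to 6 in PV against V, 6 to 7 in PA against the others, and 0 in PV against SA and in LV against RV. A plain analysis of variance over all 6 regions also called 7.

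Replicate numbers are shared between regions. Of 55 pairs of arrays with the same number 12 deviated together at a correlation over 0.1 (median -0.04). Of 165 pairs with different numbers 52 did. These values gave no sign that the numbers pair the samples. They cannot exclude shared animals, since row differences enter the same correlations and each SA sample combined 2 rats. Arrays of the same row did deviate together more often, in 50 of 107 pairs (median 0.09) against 14 of 113 pairs of different rows (median -0.10). With the replicate block *Nkx2-5* was called in SA against LA (-0.54, limma adjusted p = 0.0465) and in LA against V (0.45, adjusted p = 0.0324).

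Over all genes, fitting only the regions compared changed the count called in PV against SA from 562 to 67, in LV against RV from 84 to 13 and in PV against LA from 2172 to 1264. Filtering on genes well above background raised LV against RV to 137, and normexp raised SA against LA from 2460 to 4903. Normexp lowered PV against SA to 350. Leaving out PV replicate 4 lowered PV against SA to 176, SA replicate 1 to 245, SA replicate 2 to 298 and SA replicate 3 to 251. Leaving out LV replicate 2 lowered LV against RV to 52, RV replicate 1 to 46 and RV replicate 2 to 41. The causes were not tested. Signs within slides and rows were read for the 23 member differences called in the comparisons run under the alternatives. Of their values, 68 of 69 within slides and 45 of 46 within rows kept their sign, and both exceptions were *Isl1*. Signal near background limits *Isl1* outside PA and *Shox2* in the ventricles.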
